A study of Mus musculus with 2 samples.

Results

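The 10 core genes of the circadian clock, Per1, Per2, Per3, Cry1, Cry2, Arntl, Clock, Nr1d1, Nr1d2 and Dbp, were examined for open chromatin at their start sites and in the surrounding DNA of the mouse cerebral cortex. They were taken by name from the 21938 protein-coding genes of the GENCODE M21 annotation, and all 10 were found there. The rule that names them uses no measured value, but they were named with earlier results of these data known. For each gene the regions examined were the 500 bp on either side of every annotated start site, and the gene body with 50 kb on each side.

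The circadian clock is a feedback loop of gene transcription that runs in nearly every cell of the body, with its central pacemaker in the suprachiasmatic nucleus of the hypothalamus. CLOCK and BMAL1, the product of Arntl, bind as a pair to E-boxes and activate the Per and Cry genes, whose proteins return to the nucleus and repress that pair. REV-ERB proteins, encoded by Nr1d1 and Nr1d2, and the opposing ROR proteins act on Arntl through ROR/REV-ERB elements, and DBP and its relatives act through D-boxes.

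Nuclei were taken from the cortex of the left hemisphere of B6CASTF1/J mice, the first-generation cross of C57BL/6J with CAST/EiJ. Both mice were female and 10 days old. The method was DNase-seq, in which DNase I cuts accessible DNA, so that dense cuts mark open chromatin (peaks) and short protected stretches inside it are called footprints. The 2 libraries formed 1 group, numbered as biological replicates 1 and 2 and labelled as separate animals, with no treatment and no second tissue or time point. The sources used here do not state the hour of collection, so the values cannot be placed in the daily cycle.

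Each library had 2 deposited peak lists, the smaller with 60071 peaks (replicate 1) and 70563 peaks (replicate 2), the larger with 109563 and 121943. The footprint lists held 212785 and 224029 entries. The deposited signal of a peak, a linear value per library, had a median of 0.830 in replicate 1 and 0.925 in replicate 2, in whole steps of 0.00692 and 0.00758. If 1 step stood for 1 cut, which the files do not state, the median peak had a counting error of 9.13% and 9.05%. Of marker genes of the tissue, promoters were open in both libraries at 5 of 5 genes of neurons, 3 of 5 of excitatory cortical neurons, 1 of 4 of interneurons, 2 of 4 of astrocytes, 3 of 4 of the oligodendrocyte lineage, 1 of 3 of microglia and 0 of 3 of endothelium. None of the 4 marker genes of the suprachiasmatic nucleus (Vip, Avp, Six6 and Lhx1) and none of the 4 of other tissues was open in both. These counts are of the smaller lists, where 55.2% of all protein-coding genes were open in both libraries. With the larger lists, where 61% were, excitatory cortical neurons had 4 of 5, astrocytes 4 of 4 and microglia 2 of 3. Endothelium then had 1 of 3 and other tissues 1 of 4, and the remaining counts did not change. The libraries hold all cells of the tissue together, so that open chromatin in fewer cells and less open chromatin in each cell cannot be told apart.

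The sequences that carried the clock motifs are shown first, since the footprint results turn on them. Near the start sites of 7 of the 10 genes, footprints found in both libraries, extended by 5 bp on each side, held a match to an E-box (CACGTG), an E'-box (CACGTT) or a D-box (TTATGTAA, TTATGCAA or TTACGTAA), searched on both strands. Footprints that overlapped between the libraries were merged, and without the extension this was so in 4 genes, Per1, Cry1, Cry2 and Dbp. The matches of Per2, Per3 and Nr1d2 reach beyond the merged footprint. Each is printed 5′ to 3′ on the strand of its gene in a window of 30 bases, with the match in capitals. The bases are those of the reference genome, from which the CAST/EiJ copy of these mice can differ; the parental alleles were not separated here. Distances run from the start of the gene to the centre of the match, negative upstream, and coordinates are on mm10.
Per1 E-box, -332, chr11:69094871-69094900, plus strand: tgagccagcctgCACGTGttccctacagct
Per1 E-box, -148, chr11:69095055-69095084, plus strand: cgcccccgccctCACGTGgctctatcacta
Per2 D-box, -122, chr1:91459431-91459460, minus strand: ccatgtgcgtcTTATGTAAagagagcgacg
Per2 E'-box, +8, chr1:91459302-91459331, minus strand: agcgcgcgcggtCACGTTttccactatgtg
Per3 D-box, -154, chr4:151044805-151044834, minus strand: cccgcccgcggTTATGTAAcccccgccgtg
Cry1 E-box, -48, chr10:85185097-85185126, minus strand: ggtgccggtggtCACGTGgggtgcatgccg
Cry2 E'-box, -190, chr2:92434218-92434247, minus strand: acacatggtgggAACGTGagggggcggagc
Nr1d2 E-box, +554, chr14:18238558-18238587, minus strand: ggcgggcggagaCACGTGaggccgcggggc
Nr1d2 E-box, +600, chr14:18238513-18238542, minus strand: gggccggaggaaCACGTGggggcggtgccg
Dbp E-box, +2626, chr7:45707700-45707729, plus strand: acattccctcgcCACGTGagtccgccttcc

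All 10 clock genes had an open promoter in both mice. Each had a peak of the smaller list within 500 bp of a start site in each library, as did 55.2% of all protein-coding genes, and each also had one in the larger lists, as did 61% of them. The promoter signal of a gene was taken as the highest of its promoter peaks in each library. The mean of both libraries had a median of 7.10 over the 10 genes, against 2.89 over the 12105 protein-coding genes with open promoters. Of the 10 genes, 9 lay in the upper 25% of those open genes (a mean signal above 4.67) and 6 in the upper 10% (above 6.52). Clock was the gene outside the upper 25%. No test was made of the genes as a list, because they were named with earlier results of these data known.

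**Figure D1:**
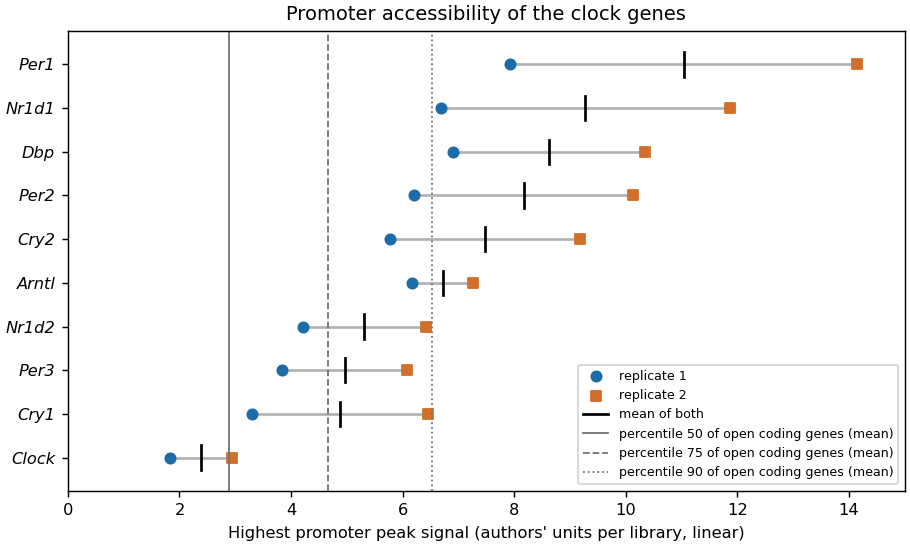
Highest promoter peak signal of each clock gene (linear, authors' units) in replicate 1 (circles) and replicate 2 (squares), ordered by the mean of both (black bars), with lines at percentiles 50, 75 and 90 of the mean signal of all open protein-coding genes. Per1 is highest and Clock lowest in each library, and replicate 2 lies to the right of replicate 1 at all 10 genes.

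The activating pair of the clock differed in promoter signal. Arntl, on the plus strand at chr7:113207465-113314126, had a promoter signal of 6.17 (replicate 1) and 7.26 (replicate 2), a mean of 6.72 ± 0.77 (SD, n = 2). Clock, the gene of its partner, on the minus strand at chr5:76209868-76304792, had 1.83 and 2.93, a mean of 2.38 ± 0.78 (SD, n = 2). The ranges of both genes did not overlap. Arntl exceeded 90.9% of open protein-coding genes by its mean and Clock 41.2%. By this signal Clock was the lowest of the 10 and the only one below the median of open genes.

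The peak of Clock at its first start site was also narrow in one library, 80 bp wide in replicate 1 (chr5:76304781-76304860) and 260 bp in replicate 2 (chr5:76304681-76304940). A second region, chr5:76303881-76304080, lay in the first part of the gene with a signal of 0.934 and 1.14, and a peak 422 bp inside the gene was called in replicate 1 alone at 0.553. The low peak signal of Clock did not come with a short accessible stretch. All 1001 bp around its start had a cut rate with a false discovery rate (FDR) under 0.05 in both libraries, where the median over open genes was 668 bp and 696 bp. At an FDR of at most 0.001 Clock had 1001 bp (replicate 1) and 893 bp (replicate 2), against medians of 475 and 533 bp.

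The promoter peak of Arntl is shown because of a repeated element in it. Capitals mark footprints found in both libraries, merged over them, so a capital base can lie in the footprint of 1 library alone. Bases in annotated exons were left out.
Arntl, chr7:113207161-113207421, plus strand: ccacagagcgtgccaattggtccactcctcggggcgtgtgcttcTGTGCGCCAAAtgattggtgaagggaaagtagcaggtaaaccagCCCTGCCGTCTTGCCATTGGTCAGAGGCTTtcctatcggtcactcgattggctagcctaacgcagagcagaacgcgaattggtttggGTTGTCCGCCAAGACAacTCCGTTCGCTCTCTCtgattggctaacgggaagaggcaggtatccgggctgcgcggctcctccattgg
The window of 1001 bp around the Arntl start held 10 matches to the CCAAT box (CCAAT). At least 1 such match lay within 500 bp of the start in 67.8% of open protein-coding genes and in a footprint of both libraries in 17.1%, and 0.0413% had as many as Arntl. In the printed stretch most of them read attgg, since 9 of the 10 lay on the strand opposite to the gene. A footprint of both libraries overlapped 1 of the 10, centred at -199 bp from the start. Besides them, 1 of 6 GC boxes (GGGCGG), centred at -40 bp, lay in a footprint of both libraries. A GC box was within 500 bp of the start in 82.5% of open protein-coding genes and in such a footprint in 50.7%. The ROR/REV-ERB element (ANTAGGTCA or ANTGGGTCA) through which REV-ERB and ROR proteins are known to act on this gene had 1 match, starting 74 bp inside the gene. It lay outside the peaks and footprints of both libraries. In replicate 2, however, all 1001 bp around the Arntl start, this element included, had a cut rate with an FDR of at most 0.001. In replicate 1, 852 of the 1001 bp had an FDR under 0.05. A ROR/REV-ERB element was within 500 bp of the start in 3.1% of open protein-coding genes and in a footprint of both libraries in 0.0826%.

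The 3 Period genes encode the PER repressors, and their promoters stood in the order Per1, Per2, Per3 in each library. Per1, on the plus strand at chr11:69095217-69109960, had the highest promoter signal of all 10 genes, 7.93 (replicate 1) and 14.1 (replicate 2). Its mean of 11.0 ± 4.40 (SD, n = 2) lay above 99.6% of open protein-coding genes. Per2, on the minus strand at chr1:91415982-91459324, had 6.21 and 10.1, a mean of 8.17 ± 2.78 (SD, n = 2). Per3, on the minus strand at chr4:151003652-151044665, had 3.85 and 6.09, a mean of 4.97 ± 1.58 (SD, n = 2). The values of Per3 lay below both of Per2 and both of Per1, while those of Per1 and Per2 overlapped.

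The promoter peaks of the Period genes are shown for the arrangement of their footprints. Capitals again mark the merged footprints found in both libraries.
Per1, chr11:69094781-69095020, plus strand: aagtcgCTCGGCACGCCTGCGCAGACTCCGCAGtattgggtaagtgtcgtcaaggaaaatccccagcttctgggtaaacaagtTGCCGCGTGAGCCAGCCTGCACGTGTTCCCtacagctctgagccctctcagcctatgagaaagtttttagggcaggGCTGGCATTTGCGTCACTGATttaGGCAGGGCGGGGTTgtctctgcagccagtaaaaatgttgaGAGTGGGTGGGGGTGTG
Per2, chr1:91459352-91459580, minus strand: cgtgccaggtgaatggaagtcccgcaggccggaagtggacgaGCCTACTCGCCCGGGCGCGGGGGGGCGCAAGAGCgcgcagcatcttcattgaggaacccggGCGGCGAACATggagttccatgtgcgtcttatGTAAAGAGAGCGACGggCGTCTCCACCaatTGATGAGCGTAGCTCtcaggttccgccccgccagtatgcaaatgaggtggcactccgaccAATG
Per3, chr4:151044761-151044852, minus strand: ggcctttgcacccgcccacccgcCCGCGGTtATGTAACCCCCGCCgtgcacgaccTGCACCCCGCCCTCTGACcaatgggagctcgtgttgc
Per1 carried 2 E-boxes under footprints, centred at -332 and -148 bp from its start. The first lies in the printed stretch, and the footprint of replicate 2 ended inside it, at 69094885. The second lay under a footprint in both libraries although the peak of replicate 1 ended before it, at 69095020, while that of replicate 2 reached 69095200. Of open protein-coding genes, 21.4% had an E-box within 500 bp of the start and 4.14% had one in a promoter footprint of both libraries.

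Per2 and Per3 were the genes with D-boxes within 500 bp of the gene's start. Each had 2 matches in the window around its start, where 3.87% of open protein-coding genes had any and 0.198% had as many. In each gene 1 of them lay at a footprint of both libraries, centred at -122 bp in Per2 and at -154 bp in Per3, against 0.223% of open protein-coding genes with a D-box in such a footprint. The other D-box of Per3, starting at -205 bp, lay in the peaks of both libraries with no footprint, and the other of Per2, 222 bp inside the gene, lay outside the peaks. Per2 also had an E'-box centred 8 bp inside the gene at a footprint of both libraries. This footprint reached into the match by less than its full length, as did those at both D-boxes.

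**Figure D2:**
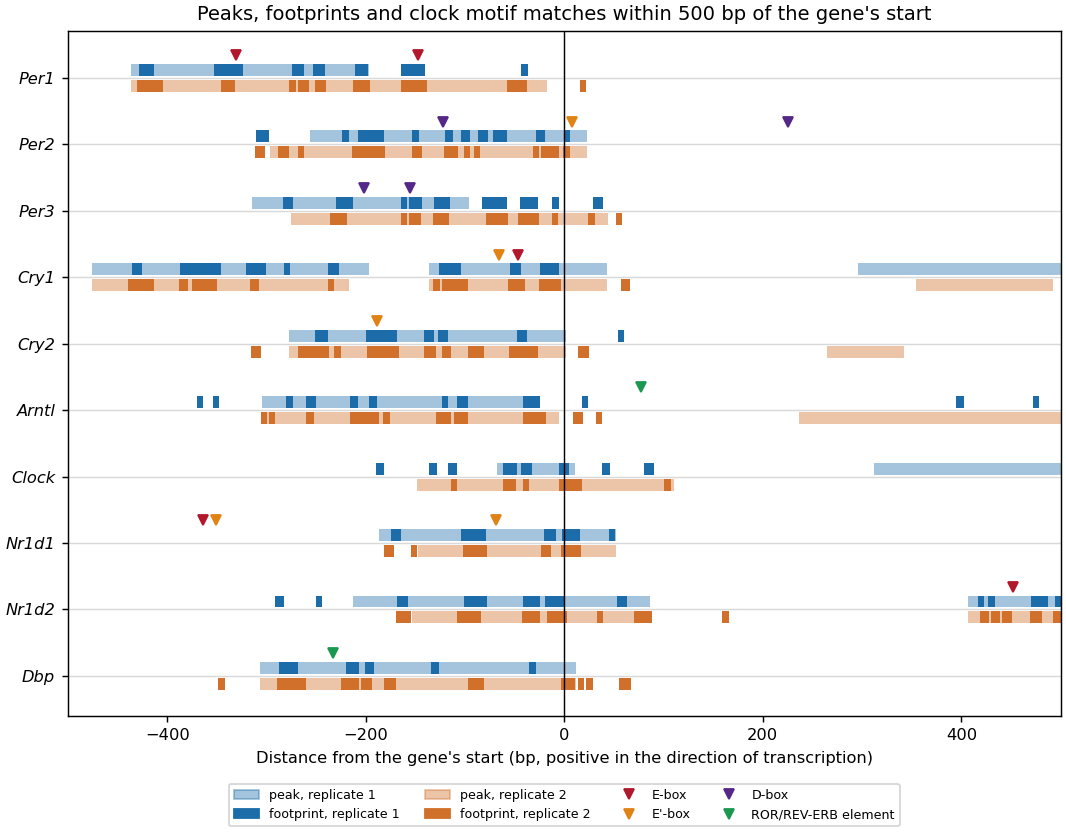
Peaks (pale bars) and footprints (dark bars) of replicate 1 (blue) and replicate 2 (orange) within 500 bp of the start of each clock gene, with matches to the 4 clock motifs as triangles, on an axis of distance from the gene's start in bp. Both E-boxes of Per1, the E-box of Cry1 and the E'-box of Cry2 stand over footprints of both libraries, and Clock has no match.

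The Cryptochrome genes encode the CRY partners of the PER proteins. Cry2, on the minus strand at chr2:92403646-92434043, had a promoter signal of 5.78 (replicate 1) and 9.19 (replicate 2), a mean of 7.48 ± 2.41 (SD, n = 2). Cry1, on the minus strand at chr10:85131700-85185064, had 3.31 and 6.46, a mean of 4.88 ± 2.23 (SD, n = 2). Cry2 was higher in each library, but the range of Cry1 reached into that of Cry2. Cry1 had 2 strong promoter peaks in place of 1. The peak at its start is the one given above, and the other, chr10:85185261-85185540, had a signal of 3.06 and 5.40. A weak peak inside the gene had 0.636 and 0.622.

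Each Cryptochrome promoter had 1 element of the E-box kind at a footprint of both libraries, and the peaks that hold them are printed with footprint bases in capitals.
Cry1, chr10:85185065-85185200, minus strand: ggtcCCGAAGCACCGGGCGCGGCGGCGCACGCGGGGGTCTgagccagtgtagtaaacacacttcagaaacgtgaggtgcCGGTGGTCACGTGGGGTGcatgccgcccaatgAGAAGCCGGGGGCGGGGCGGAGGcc
Cry2, chr2:92434086-92434320, minus strand: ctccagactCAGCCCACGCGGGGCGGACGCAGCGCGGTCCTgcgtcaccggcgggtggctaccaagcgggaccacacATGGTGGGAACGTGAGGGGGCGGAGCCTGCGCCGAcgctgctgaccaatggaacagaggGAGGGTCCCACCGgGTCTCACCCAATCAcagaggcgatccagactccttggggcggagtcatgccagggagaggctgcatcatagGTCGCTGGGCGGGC
In Cry1 the E-box centred at -48 bp from the start lay inside a footprint, while an E'-box starting at -69 bp, seen in the printed stretch as aacgtg, lay in the peaks of both libraries without one. In Cry2 an E'-box centred at -190 bp lay inside a footprint that also covered a GC box. Of open protein-coding genes, 1.26% had an E'-box in a promoter footprint of both libraries. At its start, Cry1 also had one of the highest ratios of CpG observed over expected, 1.01, together with Per2 at 1.00, against a median of 0.73 over open genes.

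Of the REV-ERB genes, which encode nuclear receptors that repress Arntl, Nr1d1 had the higher promoter signal. Nr1d1, on the minus strand at chr11:98767932-98775333, had a promoter signal of 6.68 (replicate 1) and 11.9 (replicate 2), a mean of 9.28 ± 3.67 (SD, n = 2), above 98.3% of open protein-coding genes. Nr1d2, on the minus strand at chr14:18204054-18239127, had 4.21 and 6.41, a mean of 5.31 ± 1.56 (SD, n = 2). The 2 genes did not overlap. In Nr1d2 the value came from a different peak in each library, since 2 peaks were of like height. The one at the first start had 3.88 and 6.41, and the one centred 536 bp inside the gene in replicate 1, chr14:18238461-18238720, had 4.21 and 6.04.

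The promoter peak of Nr1d1 was 240 bp wide in replicate 1 and 200 bp in replicate 2. Of the 1001 bp around its start, 521 and 577 bp had a cut rate with an FDR under 0.05, the fewest of the 10 genes in each library. At an FDR of at most 0.001 the stretch was 459 and 518 bp, near the medians of 475 and 533 bp over open genes. Its ratio of CpG observed over expected, 0.44, was the lowest of the 10. An E-box starting at -367 bp and an E'-box starting at -354 bp lay outside the peaks, and another E'-box, starting at -72 bp, lay in the peaks of both libraries with no footprint. No clock motif lay in a footprint near a start of Nr1d1; the region inside the gene described with the distal peaks held them. Nr1d2 had 2 E-boxes at footprints of both libraries, centred 554 and 600 bp inside the gene and within 500 bp of another start site of its first cluster. The footprints covered these matches in part. Another E-box, starting 449 bp inside the gene, was overlapped by a footprint of 1 library. A D-box in the peak at chr14:18238461-18238720, more than 500 bp from the gene's start, was overlapped by a footprint of replicate 2 alone.

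Dbp, an output gene of the clock that encodes a D-box activator, had a promoter signal of 6.91 (replicate 1) and 10.3 (replicate 2), a mean of 8.63 ± 2.42 (SD, n = 2). It lies on the plus strand at chr7:45705088-45710203, and its mean exceeded 97.3% of open protein-coding genes. Its one E-box in a footprint of both libraries lay 2626 bp inside the gene, near a later start site at 45707889 where the peak had a signal of 2.86 and 3.73. A ROR/REV-ERB element starting at -236 bp from the first start lay in the peaks of both libraries with no footprint. Of its 5 CCAAT boxes around the first start, 1 was overlapped by a footprint of both libraries.

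In order of mean signal the genes ran Per1, Nr1d1, Dbp, Per2, Cry2, Arntl, Nr1d2, Per3, Cry1 and Clock. Of neighbours in this order, Clock alone was separated, since both of its values lay below both of Cry1. The ranges of every other neighbouring pair overlapped. Replicate 2 was higher at all 10 genes, so these ranges also hold the difference between the libraries. Compared within each library, neighbours kept this order in both, except Nr1d1 and Dbp, Cry2 and Arntl, and Per3 and Cry1. Per1 was first and Clock last in each library taken by itself. The strongest promoter peaks of the 10 genes were 250 bp (replicate 1) and 290 bp (replicate 2) wide at the median, against 220 bp in each library over open protein-coding genes. The sources used here do not say how the signal relates to width.

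Signal was higher in replicate 2 at all 10 clock genes, as it was at 97.3% of open protein-coding genes. The median log2 ratio of replicate 2 over replicate 1 was 0.67 over the 10, against 0.56 over all open genes and 0.61 over the upper 25% by signal. With the signal counted in the steps of each library, the medians were 0.54 over the 10 and 0.43 over all open genes. Arntl had the lowest log2 ratio, 0.23, with 11.4% of open genes below it, and Cry1 the highest, 0.97, with 94.2% below it. Arntl was the only one of the 10 below the median of open genes. In steps, Arntl had 892 in replicate 1 and 958 in replicate 2, and Per1 had 1146 and 1866. If 1 step stood for 1 cut, the counting errors of the 10 promoters ran from 2.31% (Per1, replicate 2) to 6.14% (Clock, replicate 1). With 1 library per animal, a difference between the animals and one between the libraries cannot be told apart.

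**Figure D3:**
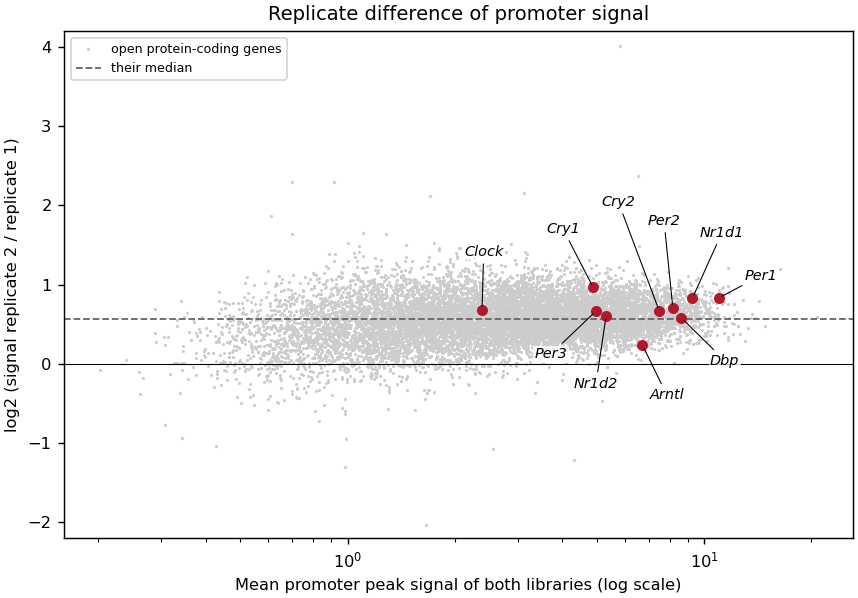
Log2 ratio of promoter signal, replicate 2 over replicate 1, against the mean signal of both libraries (log axis) for 12105 open protein-coding genes (grey points), with the 10 clock genes in red and the median of all as a dashed line. All 10 lie above 0, from 0.23 at Arntl to 0.97 at Cry1, and Arntl is the only one below the dashed line.

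The clock genes differed in how many of their start sites were accessible. Start sites within 500 bp of each other were joined into clusters, and the most upstream cluster was open in both libraries at 10 of 10 genes, against 49.8% over all protein-coding genes. Of the 16 later clusters of these genes, 3 were open in both, against 10.1% of later clusters over all protein-coding genes. These were 2 of Per1, with a signal of 3.13 and 4.81 at 69098948 and of 2.03 and 3.46 at 69100152 to 69100522, and the one of Dbp at 45707889. Another start of Dbp, at 45707104, had a peak of the smaller list in replicate 2 alone, with a signal of 2.30, and in the larger list of replicate 1 one of 1.21. The internal starts of Per2, Per3, Cry1, Cry2, Arntl, Clock, Nr1d1 and Nr1d2 had no peak of the smaller lists in either library.

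Within 500 bp of any start, the 10 genes held 102 footprints in replicate 1 and 113 in replicate 2. All 10 had at least 1 footprint found in both libraries, as had 94.2% of open protein-coding genes. Of the 102, 71 overlapped a footprint of replicate 2 (69.6%), against 59.9% over open protein-coding genes. The genes had a median of 10 footprints in replicate 1 and 10.5 in replicate 2, where open protein-coding genes had 5 and 5. Genes with more start sites have more sequence counted, and no account was taken of this.

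Footprint numbers varied among the clock genes. Per1, which has 3 open start clusters, had 17 footprints in each library, and Nr1d1 had 5 in each, the lowest in replicate 1. Nr1d2 had 14 and 17. The counts of 3 genes differed most between the libraries: Clock had 10 in replicate 1 and 5 in replicate 2, while Cry2 had 6 and 11 and Dbp 10 and 18. Merged over the libraries, the footprints found in both had a median width of 19 bp at the 10 genes, against 18 bp over open genes.

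**Figure D4:**
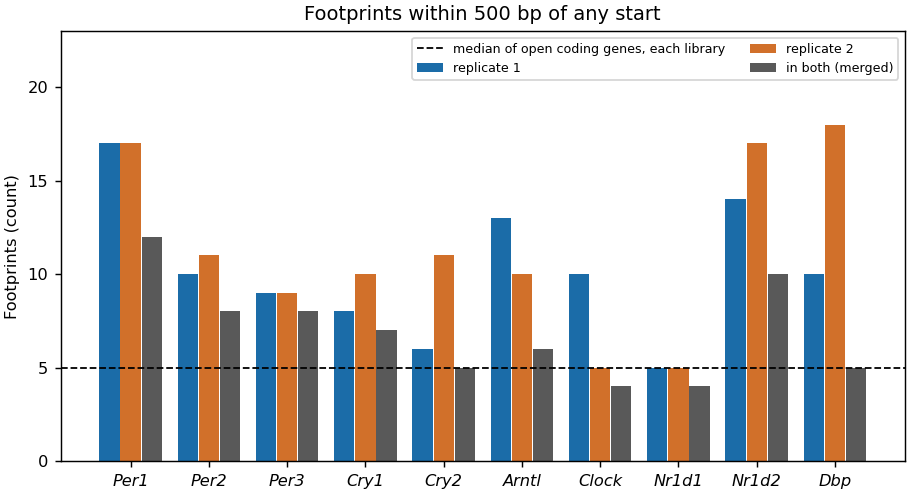
Number of footprints within 500 bp of any start site of each clock gene in replicate 1 (blue), in replicate 2 (orange) and found in both libraries after merging (grey), with the median of open protein-coding genes in each library as a dashed line at 5. Per1 has 17 in each library, and the counts of Clock, Cry2 and Dbp differ most between the libraries.

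Counted over the 10 genes, 10 matches to the 4 clock motifs (E-box, E'-box, D-box and ROR/REV-ERB element) lay in footprints of both libraries extended by 5 bp, 6 of them E-boxes, 2 E'-boxes and 2 D-boxes. They fell in 7 of the 10 genes, where 5.57% of open protein-coding genes had such a match. With no extension 5 matches lay wholly within the merged footprints, both of Per1 and those of Cry1, Cry2 and Dbp. That is 4 of the 10 genes, against 3.02% of open protein-coding genes. The first E-box of Per1 was covered only in part by the footprint of replicate 2. The windows of 1001 bp around the starts held a clock motif in 9 of the 10 genes, all but Clock, against 39.9% of open protein-coding genes. Outside that window, the second promoter peak of Clock, chr5:76303881-76304080, held an E'-box and a ROR/REV-ERB element, with no footprint found in both libraries in it. These genes are known targets of these elements, which is why the genes and motifs were put together, and the counts are not independent evidence of that.

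Footprints overlapped some of the clock motifs near the starts and not others. Of 5 E-boxes in the windows of 1001 bp, 3 were overlapped by a footprint in each library, against 11.6% of such E-boxes over open protein-coding genes. The corresponding counts were 2 of 5 E'-boxes, against 3.64%, and 2 of 4 D-boxes, against 4.44%. Neither of the 2 ROR/REV-ERB elements was overlapped in both, against 2.37%. Elements that many promoters share gave 17 of 50 GC boxes, against 23.6%, and 5 of 34 CCAAT boxes, against 9.51%. Peaks of both libraries held 3 of the 5 E-boxes, against 43.3%, 4 of the 5 E'-boxes, against 22.0%, and 3 of the 4 D-boxes, against 20.2%. For GC boxes it was 23 of 50, against 41.5%, and for CCAAT boxes 22 of 34, against 41.8%. The 10 genes also had more footprints, as given above, and the footprint shares were not adjusted for either. The CRE (TGACGTCA), the site of cAMP-responsive factors, had no match in the windows of the 10 genes, against 4.82% of open protein-coding genes with one there and 3.98% with one in a footprint of both libraries. An E'-box was in the window of 4 of the 10 genes, against 18.4%. A footprint is a protected stretch of DNA and does not name the protein on it.

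Outside the promoters, 55 distal peaks shared by both libraries lay in the bodies and 50 kb flanks of the 10 genes, more than 500 bp by midpoint from every annotated start of any gene. Of these, 19 lay in the body of their own clock gene, and for 24 the nearest protein-coding start was that of the clock gene. No peak fell in the windows of 2 clock genes. The larger peak lists gave 88, and the gene bodies with 20 kb flanks gave 35. The mean signal of the 55 peaks had a median of 1.54, against 0.903 over all 34515 shared distal peaks, and 18 of the 55 lay in the upper 10% of those (above 1.88). Replicate 2 was higher at 49 of the 55, against 80.5% of all shared distal peaks, and 44 of the 55 held a footprint found in both libraries, against 74.9%.

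Per1 and Nr1d1 had the densest surroundings. Per1 had 12 shared distal peaks, or 10.5 per 100 kb, and Nr1d1 11, or 10.2 per 100 kb, against a median of 1.54 per 100 kb over protein-coding genes, of which 99.9% had a lower density than either. In the deposited list of replicate 1, 2 of the 12 peaks of Per1 overlap each other (chr11:69062641-69062960 and chr11:69062701-69063240). Joined, they leave 11 regions, or 9.59 per 100 kb, and 54 in place of 55 over the 10 genes. Both are short genes, of 14744 bp (Per1) and 7402 bp (Nr1d1), so most of each window was flank. Of the 12 around Per1, the nearest protein-coding start was that of Per1 for 1 and that of Borcs6, Tmem107, Hes7, 9130213A22Rik or Aloxe3 for the others. Of the 11 around Nr1d1, it was Nr1d1 for 3 and Msl1, Thra or Med24 for the others. Which gene a distal peak acts on was not measured. Arntl had 7, Cry1 and Cry2 5 each, Per3 and Clock 4 each, Per2 and Dbp 3 each, and Nr1d2 1, the only gene of the 10 with a density (0.740 per 100 kb) below the median.

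**Figure D5:**
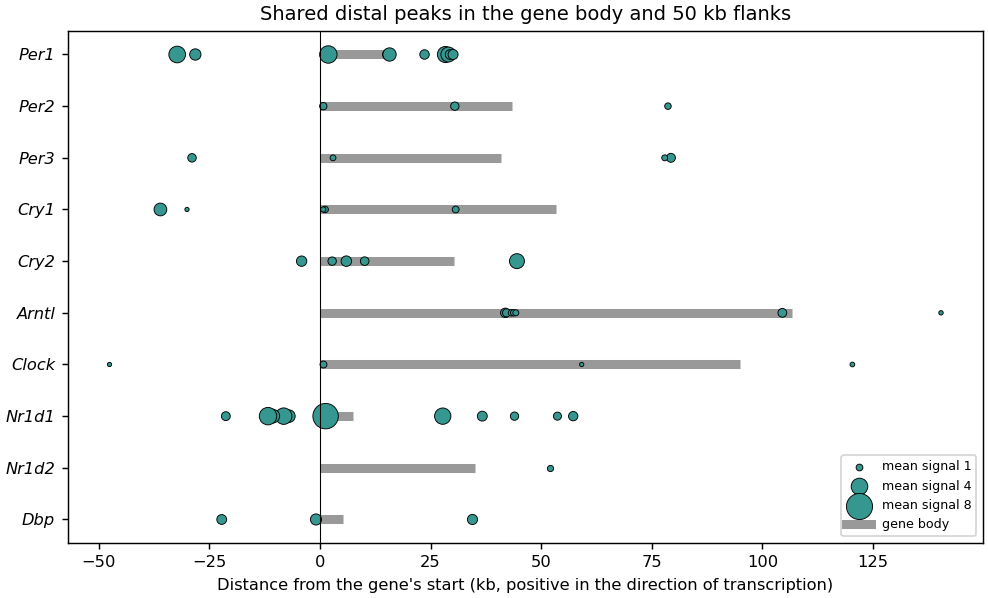
Distal peaks shared by both libraries around each clock gene, plotted by distance of the midpoint from the gene's start (kb, positive in the direction of transcription), with the gene body as a grey bar and the area of a circle growing with the mean signal of both libraries. Per1 has 12 and Nr1d1 11, and the largest circle is the peak inside Nr1d1, with a mean signal of 7.68.

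The strongest distal peak lay inside Nr1d1, 1292 bp from its start, at chr11:98773861-98774220. Its signal was 5.45 (replicate 1) and 9.91 (replicate 2), a mean of 7.68 ± 3.16 (SD, n = 2), above 99.9% of shared distal peaks and between the mean promoter signals of Cry2 and Per2. The central 300 bp of it are printed, with bases of footprints found in both libraries in capitals.
Nr1d1 intron, chr11:98773891-98774190, minus strand: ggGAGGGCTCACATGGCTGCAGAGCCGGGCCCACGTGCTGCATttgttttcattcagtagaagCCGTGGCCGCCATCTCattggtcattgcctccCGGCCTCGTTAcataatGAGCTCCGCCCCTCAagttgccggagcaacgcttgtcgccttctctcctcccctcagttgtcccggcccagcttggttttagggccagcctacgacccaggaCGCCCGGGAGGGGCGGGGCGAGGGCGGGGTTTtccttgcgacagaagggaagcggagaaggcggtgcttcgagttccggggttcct
All 5 footprints of replicate 1 in this peak overlapped one of replicate 2. Footprints of both libraries covered an E-box centred 1176 bp inside the gene and 3 GC boxes. A D-box centred 1250 bp inside the gene was covered at its edge alone, and a CCAAT box lay next to a footprint and within the 5 bp extension. Over all shared distal peaks, 3.82% held an E-box and 1.65% a D-box.

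Of the other strong distal peaks, the next by mean signal lay upstream of Nr1d1 at chr11:98786941-98787160, with a signal of 3.62 (replicate 1) and 4.99 (replicate 2). The third lay in an intron of Per1, 1914 bp from the start, at chr11:69096981-69097280, with 3.68 and 4.92. The fourth lay upstream of Per1, at -32246 bp, at chr11:69062701-69063240, with 2.84 and 5.17, nearest to the start of Borcs6. The fifth lay upstream of Nr1d1, at -8178 bp, at chr11:98783381-98783640, with 3.18 and 4.68. Thus all 5 strongest belonged to the windows of Per1 and Nr1d1.

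Clock and CRE motifs at footprints of both libraries in distal peaks, extended by 5 bp, were found around these 2 genes alone. The matches are printed in capitals, as for the start sites above.
Nr1d1 E-box, +1176, chr11:98774142-98774171, minus strand: cagagccgggccCACGTGctgcatttgttt
Nr1d1 D-box, +1250, chr11:98774069-98774098, minus strand: tcccggcctcgTTACATAAtgagctccgcc
Nr1d1 E-box, -8212, chr11:98783530-98783559, minus strand: ctcgggcagggcCACGTGccccaccccctc
Nr1d1 CRE, -10614, chr11:98785932-98785961, minus strand: gtctgcctgacTGACGTCAtcatctataga
Per1 CRE, +1988, chr11:69097191-69097220, plus strand: tgcctccgcttTGACGTCAcctccctctcc
Per1 is known to respond to cAMP signalling through CRE elements, and the CRE printed for it lay in the strong intronic peak. The merged footprint covered this CRE only in part, since it ended inside the match at 69097205. A CRE was present in 2 of the 55 distal peaks (3.64%), against 0.475% of all shared distal peaks, and an E-box in 4 (7.27%), against 3.82%. These are descriptions of a small number of peaks.

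The strongest distal peaks of the other genes were weaker. That of Cry2 lay 44532 bp downstream of its start, nearest to the start of Mapk8ip1, with a signal of 2.85 (replicate 1) and 3.93 (replicate 2). That of Cry1 lay upstream at -36036 bp, with 2.14 and 3.15, and that of Dbp at -879 bp, nearest to Car11, with 1.87 and 2.43. In Arntl it lay in an intron 41886 bp from the start, with 1.25 and 2.08. For Per3 it lay 79324 bp away, beyond the 3′ end, with 1.06 and 2.02, and for Per2 30494 bp inside the gene, with 1.01 and 1.78. The strongest of Clock is the region at chr5:76303881-76304080 given above, which met the rules for promoter and for distal peaks, and the single one of Nr1d2, 51899 bp from its start, had 0.851 and 0.910.

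Arntl had a group of distal peaks within its body. Of its 7, 5 lay between 41886 and 44275 bp from the start, with mean signals from 0.832 to 1.67. Their signals were nearly equal in both libraries at 4 of the 5, with log2 ratios of replicate 2 over replicate 1 from -0.04 to 0.19, against a median of 0.30 over all shared distal peaks.

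Of 17 other genes of the clock, 15 had an open promoter in both libraries, against the 55.2% of protein-coding genes given above. The highest were Btrc, which encodes a subunit of a ubiquitin ligase that marks PER proteins for breakdown, with a signal of 7.37 (replicate 1) and 11.6 (replicate 2), Tef, a relative of Dbp, with 6.73 and 8.97, and Ciart, a repressor of the CLOCK and BMAL1 pair, with 4.56 and 7.12. Npas2, which can stand in for Clock, had no promoter peak of the smaller list in replicate 1 and one of 0.894 in replicate 2, and peaks of 0.553 and 0.894 in the larger lists. The mean signals of Btrc, Tef and Ciart were 9.48 ± 2.99, 7.85 ± 1.58 and 5.84 ± 1.81 (SD, n = 2), within the range of the 10 core genes.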

How the data were processed

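DNase-seq was measured in 2 libraries of 1 group, so no contrast, batch or pair was tested. Per the deposited file descriptions, the peak, footprint and cut rate lists of a library derive from its filtered alignments alone, on mm10, so replicates were not pooled. The sources used here do not give the aligner or the callers. The signal per peak is the authors' value, on a scale not given. The p-value column of the deposited footprint lists held 0.01 throughout, so footprints were not ranked, and the authors' FDR values were all under 0.05.

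Starts came from GENCODE M21 and sequences from the GRCm38.p6 reference. On each chromosome the last listed peak or footprint position lay within the length of that reference. Overlap needed 1 bp. The smaller list was the main one. Motifs were matched exactly on both strands. Background values are the same measures over all, or all open, protein-coding genes. The genes, lists and rules were chosen with earlier results of these data known. All 10 genes were named. Of other clock genes, the 3 with the highest signal and those not open in both libraries were to be named, of which 1 is not reported here, and of distal peaks the strongest of each gene and the 5 strongest. The scripts were tested on simulated data. Python 3.11.15, NumPy 2.4.6 and pandas 2.3.3 were used. Standard deviations cover the spread between these 2 libraries.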

Additional observations from a re-analysis of the deposited data

How the results depend on the processing

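All 10 promoters stayed open in both libraries with the larger peak lists, windows of 250 bp, 1 kb and 2 kb, other choices of start sites and the stronger 50% of peaks. Leaving out either library, the open core genes numbered 10 and 10, the other clock genes 15 and 16, the genes with a footprint 10 and 10, the median promoter signal 5.97 and 8.22, the distal peaks 61 and 79, and the clock motif matches 10 and 12. The count of 55 shared distal peaks followed its definition. It was 88 with the larger lists, 35 with 20 kb flanks, 88 with 100 kb flanks, 19 in gene bodies alone and 32 when peaks within 2 kb of a start were left out. Joining overlapping entries of replicate 1, chosen after seeing the data, gave 54. The 10 clock motif matches became 5 without extension of the footprints, by construction. Of the results under other alternatives, none moved by over 1.5 times. In steps, the median promoter signal was 974 over the 10 genes and 396 over open protein-coding genes. No paired analysis was possible because the libraries form a single group. The small number of libraries and an unknown signal scale limit every comparison.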

Other observations

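Promoters of the 10 clock genes differed in sequence composition. The ratio of CpG observed over expected in the 1001 bp around the start ran from 0.44 at Nr1d1 and 0.63 at Per1 to 1.00 at Per2 and 1.01 at Cry1, with a median of 0.82 over the 10, 0.73 over open protein-coding genes and 0.55 over all protein-coding genes. The 2 genes with the strongest promoter peaks, Per1 and Nr1d1, thus had the lowest ratios of the 10. Nr1d1 had no GC box in that window, which 82.5% of open protein-coding genes had.

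Clock had the weakest promoter peak of the 10 but, like Cry1 and Nr1d2, a cut rate at an FDR under 0.05 in all 1001 bp around the start in both libraries. Per1, with the strongest peak, had 649 bp in replicate 1 and 646 bp in replicate 2, near the medians of 668 and 696 bp over open genes. At an FDR of at most 0.001, Per1 had 628 and 629 bp, against medians of 475 and 533 bp.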
